A study of Mus musculus with 16 samples.

Results

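The genes described here are the 10 that ERK signalling below the fibroblast growth factor (FGF) receptors is best known to induce as its own brakes and effectors: the phosphatases Dusp4, Dusp5 and Dusp6, the Sprouty genes Spry1, Spry2 and Spry4, the Spred genes Spred1 and Spred2, and the ETS factors Etv4 and Etv5. They were chosen by name, and a probe belonged to a gene when its RefSeq accession did; 13 probes of 55681 on the array represented these 10 genes of 21367 with a symbol. Dusp4, Dusp5, Dusp6, Spry1, Spry2, Spry4, Spred2 and Etv5 had 1 probe each, Etv4 had 2 and Spred1 had 3, of which the brightest stood for the gene.

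The arrays compared C57BL/6 mouse cortical cultures that received recombinant secreted Klotho at 1 nM, or phosphate-buffered saline as control, for 24 h before RNA was extracted. Neurons came from embryonic day 16 cortex and were treated at day 14 in vitro. Astrocytes were grown from pups of postnatal day 0 to 5 per the growth protocol, while their sample labels also say embryonic day 16; shaking for 15 h was stated to leave over 98% astrocytes. Each of the 4 groups (neuron control, neuron Klotho, astrocyte control, astrocyte Klotho) had 4 one-colour arrays, and no label says that each array had a culture of its own. The p-values therefore speak only of how far these arrays scattered, part or all of which may be technical.

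Klotho is the co-receptor that lets FGF receptors bind the hormone FGF23. An activated FGF receptor passes its signal through adaptors to RAS, RAF, MEK and ERK, and ERK then switches on genes that shut the pathway down again: DUSPs remove the activating phosphates from ERK, Sprouty proteins act on the steps between receptor and RAF, and Spred proteins bring the RAS inactivator neurofibromin to the membrane. Etv4 and Etv5 carry the transcriptional output of FGF signalling in the developing cortex. For this reason levels of these transcripts are widely read as a gauge of FGF-ERK activity.

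The sequences before the start of Dusp5 and Dusp6 are shown because Dusp5 had the largest difference in astrocytes of the genes described here, and Dusp6 encodes the other phosphatase of the group that is specific for ERK. Both are the 250 bases before the RefSeq start, on the plus strand of build GRCm38.p6, at chr19:53528895-53529144 for Dusp5 and chr10:99262981-99263230 for Dusp6. Capitals mark matches, on either strand, to the CArG box, the motif bound by serum response factor, and to TGACG, the core of the cAMP response element.
Dusp5: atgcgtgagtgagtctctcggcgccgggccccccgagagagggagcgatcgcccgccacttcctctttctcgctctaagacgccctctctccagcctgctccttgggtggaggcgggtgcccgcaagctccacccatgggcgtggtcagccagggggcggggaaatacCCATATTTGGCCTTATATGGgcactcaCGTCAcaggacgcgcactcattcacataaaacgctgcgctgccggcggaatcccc
Dusp6: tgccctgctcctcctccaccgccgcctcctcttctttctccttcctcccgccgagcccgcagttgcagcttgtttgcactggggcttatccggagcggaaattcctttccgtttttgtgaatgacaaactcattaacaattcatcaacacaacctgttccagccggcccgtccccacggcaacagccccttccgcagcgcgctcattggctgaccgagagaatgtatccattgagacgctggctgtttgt
The Dusp5 window held 2 adjoining CArG boxes, beginning 82 and 72 bases before the start, and 1 TGACG match on the minus strand 55 bases before it, with no overlap between these motifs. The Dusp6 window held neither. Windows were found for 7 of the 10 genes (8 windows, since Etv5 had 2); Dusp5 was the 1 gene of these 7 with a CArG box, and 1.47% of 32851 windows of the same length in the RefSeq table held one. TGACG was found before Dusp5 and Spred2 and in 17.8% of all windows. A match describes these letters and is no evidence of binding.

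All levels below are log2 of the background-subtracted intensity minus the array's 75th percentile, so 0 is the level of a probe brighter than 75% of probes on that array. Levels of different probes were not compared with each other. On the 16 arrays, 34120 to 39934 of 59305 spots with a transcript probe were well above background. The range was 38541 to 39934 on neuron control and 34357 to 36751 on neuron Klotho arrays, without overlap. It was 36729 to 39605 on astrocyte control and 34120 to 39890 on astrocyte Klotho arrays. Neuron arrays all lay on slide 1, with controls in row 1 and Klotho cultures in row 2. Treatment and array row in neurons therefore cannot be told apart, and neither can cell type, slide and scan day. Astrocyte control arrays lay on slide 2 and astrocyte Klotho arrays on slide 3, in rows 1 and 2 and columns 3 and 4 of each. The deposited value table goes against this: 6 of its 8 astrocyte columns equal the scanner array of another sample, and under it the 4 arrays in column 3 are controls and the 4 in column 4 are Klotho cultures, so that 4 arrays change treatment. Astrocyte results are therefore given under both sources, and which is right could not be settled.

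**Figure D1:**
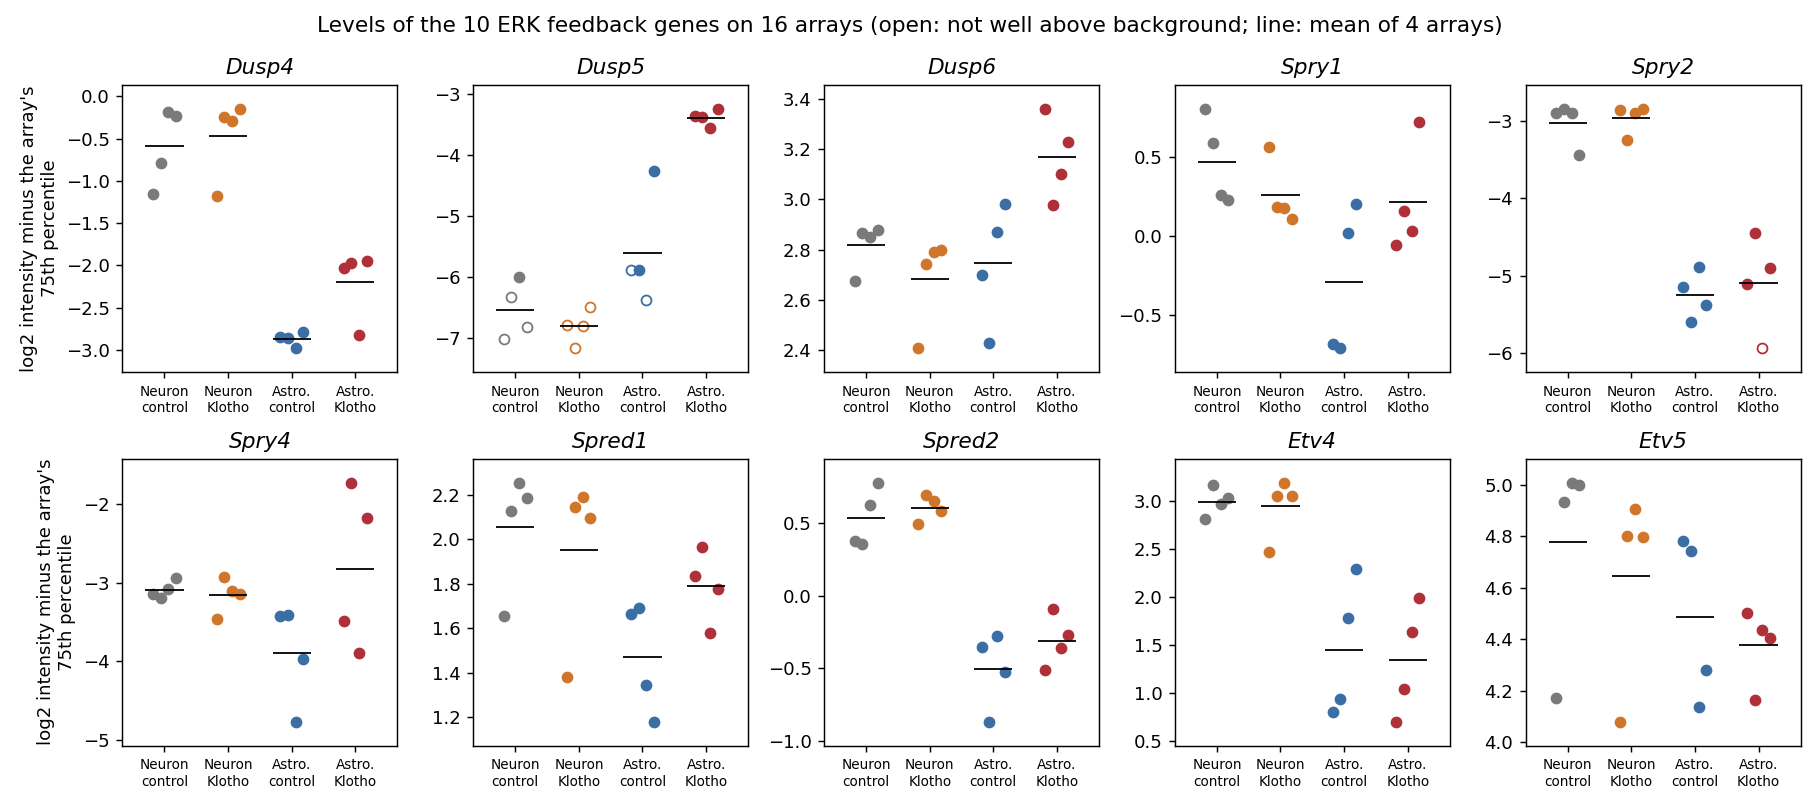
Level of each gene (log2 intensity minus the array's 75th percentile) on the 16 arrays by group, with treatments as in the scanner files; each point is 1 array, open points are not well above background, and lines are means of 4 arrays. Dusp4, Spry2, Spred2 and Etv4 sit lower on all 8 astrocyte arrays than on all 8 neuron arrays, and Dusp5 is highest on the 4 astrocyte Klotho arrays.

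The first comparison set the 8 astrocyte arrays against the 8 neuron arrays. In astrocyte cultures 6 of the 10 genes were lower and Dusp5 was higher, by limma at an adjusted p below 0.05. The background was high, since 70.2% of 26109 genes tested passed, 29.1% as higher and 41.1% as lower, and a count of 7 of 10 is no more than that background. Dusp5 was admitted to the test by the group in which it was high. The median difference of the 10 genes was -0.39 and that of all genes -0.21, which other scalings moved to between -0.16 and -0.07. In bulk cultures, fewer cells of a type and less RNA per cell cannot be told apart.

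Among the phosphatases, Dusp4, a nuclear phosphatase of ERK and other MAP kinases, was at -1.16, -0.79, -0.19 and -0.23 on the neuron control arrays and at -1.18, -0.25, -0.30 and -0.15 on the neuron Klotho arrays. On the astrocyte control arrays it was at -2.85, -2.85, -2.98 and -2.79, and on the astrocyte Klotho arrays at -2.03, -1.97, -2.82 and -1.95. No astrocyte array reached the lowest neuron array, and the means of -2.53 and -0.53 differed with an SE of 0.20 (8 arrays against 8; limma adjusted p = 1.73e-07). Dusp5, a nuclear phosphatase that acts on ERK alone, went the other way. It was well above background on 1 of 8 neuron arrays and on 6 of 8 astrocyte arrays, and it entered the test through the astrocyte Klotho group alone, so that its adjusted p of 1.36e-06 (means -6.67 and -4.49) sets measured values against values mostly at background and is no independent support. With dim neuron values raised to the lowest signal that counted as well above background, the ratio was 2.52-fold for astrocyte over neuron cultures. It was 4.38-fold for astrocyte Klotho over neuron Klotho arrays. The first ratio rests on the Klotho arrays, at a mean of -3.38, since astrocyte controls averaged -5.60 and the raised neuron mean was -5.825. Dusp5 was admitted through the Klotho arrays, so neither ratio is independent support. With control arrays alone Dusp5 did not pass the filter on dim probes and was not tested. With a normexp background and quantile scaling the Dusp5 difference was 0.68 in place of 2.18, still past the threshold. Dusp6, which acts on ERK in the cytoplasm, had means of 2.75 ± 0.15 in neuron and 2.96 ± 0.30 in astrocyte cultures (SD, n = 8), and the difference of 0.21 did not pass (limma adjusted p = 0.129; 95% interval -0.04 to 0.45).

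Of the Sprouty genes, which restrain receptor tyrosine kinase signals, Spry2 had the largest difference. Its levels ran from -3.44 to -2.85 over the 8 neuron arrays and from -5.93 to -4.45 over the 8 astrocyte arrays, with no overlap (difference -2.18 ± 0.19; limma adjusted p = 4.65e-08). One astrocyte Klotho array, replicate 3, was not well above background for Spry2. Over 25 alternative settings on the log2 scale the Spry2 difference ran from -2.285 to -0.988, so its size depends on the processing. It stayed past the threshold in all of them. Spry1 was lower by a small margin, with a difference of -0.41 ± 0.17 (limma adjusted p = 0.0483) and overlapping arrays. That call was lost in 17 of 26 alternative settings on the log2 scale, with the replicate number as a block among them (adjusted p = 0.0616). Spry4 had means of -3.13 and -3.36 and did not pass (adjusted p = 0.487; 95% interval -0.85 to 0.38).

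Of the Spred genes, Spred2 ran from 0.35 to 0.77 on neuron arrays and from -0.87 to -0.09 on astrocyte arrays, again without overlap (difference -0.97 ± 0.12; limma adjusted p = 2.76e-06). Spred1 differed by -0.38 ± 0.15 on its brightest probe (limma adjusted p = 0.0357), a call lost in 15 of 26 alternative settings on the log2 scale. Its 3 probes did not move alike. The second was at 1.05 ± 0.22 in neuron and 0.82 ± 0.20 in astrocyte cultures and did not pass (limma adjusted p = 0.102). The third and dimmest, A_55_P2090045, was higher in astrocyte cultures, at -4.52 ± 0.42 against -5.06 ± 0.19 (SD, n = 8; limma adjusted p = 0.00654). The direction for Spred1 therefore holds for the probe named and not for the gene.

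The ETS genes also parted. Etv4 was at 2.47 to 3.19 on neuron arrays and at 0.70 to 2.29 on astrocyte arrays (difference -1.57 ± 0.23; limma adjusted p = 1.96e-05), and its second probe gave -1.51 ± 0.29 (adjusted p = 0.000221). Etv5 was bright in both, at 4.71 ± 0.37 in neuron and 4.43 ± 0.24 in astrocyte cultures (SD, n = 8), and did not pass (limma adjusted p = 0.152). Without the replicate 1 arrays of the neuron groups, which stood low for Etv5, the difference was -0.48 with an adjusted p of 0.00522. The 4 genes without overlap between cell types, Dusp4, Spry2, Spred2 and Etv4, were lower in astrocytes, and 24.9% of all genes showed that pattern.

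Upstream genes from lists of the pathway differed too. The counts that follow stand beside 29.1% of all genes called higher and 41.1% called lower. Of 5 FGF receptor and co-receptor genes tested, 4 were higher in astrocyte cultures, with Fgfr1 at 1.71 ± 0.17 and Fgfr2 at 1.44 ± 0.11 above neurons, while Kl and Klb were well above background on 2 and 1 of the 16 arrays. Of 11 genes of the RAS-ERK cascade 9 were lower and none higher, with Araf at -1.48 ± 0.14. Among 6 other feedback genes 5 were lower, Spry3 (-3.78 ± 0.20) and Etv1 (-3.19 ± 0.24) furthest. Among 6 other MAP kinase phosphatases 3 were higher and 3 lower, with Dusp16 at 1.94 ± 0.19 and Dusp8 at -3.67 ± 0.24. Of 11 ERK-responsive early genes 5 were higher, with Ier3 at 4.67 ± 0.56 and Fos at 2.94 ± 0.37. The labelled cell types were checked against their markers. Of 10 neuron markers 9 were lower in astrocyte cultures, and of 9 astrocyte markers 7 were higher and 1 was lower. The neuronal gene Rbfox3 was at 4.31 to 5.07 on neuron and -5.24 to -3.57 on astrocyte arrays. Both cultures also held RNA of other cells. Of 9 microglia markers all were well above background on every astrocyte array, with summed levels of 6.67 to 7.83 against 5.05 to 5.42 in neurons. All 9 astrocyte markers were above background on every neuron array, and oligodendrocyte lineage markers summed to 5.92 to 7.11 in neuron and 4.54 to 6.92 in astrocyte cultures. The part of these cells in the differences was not tested.

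**Figure D2:**
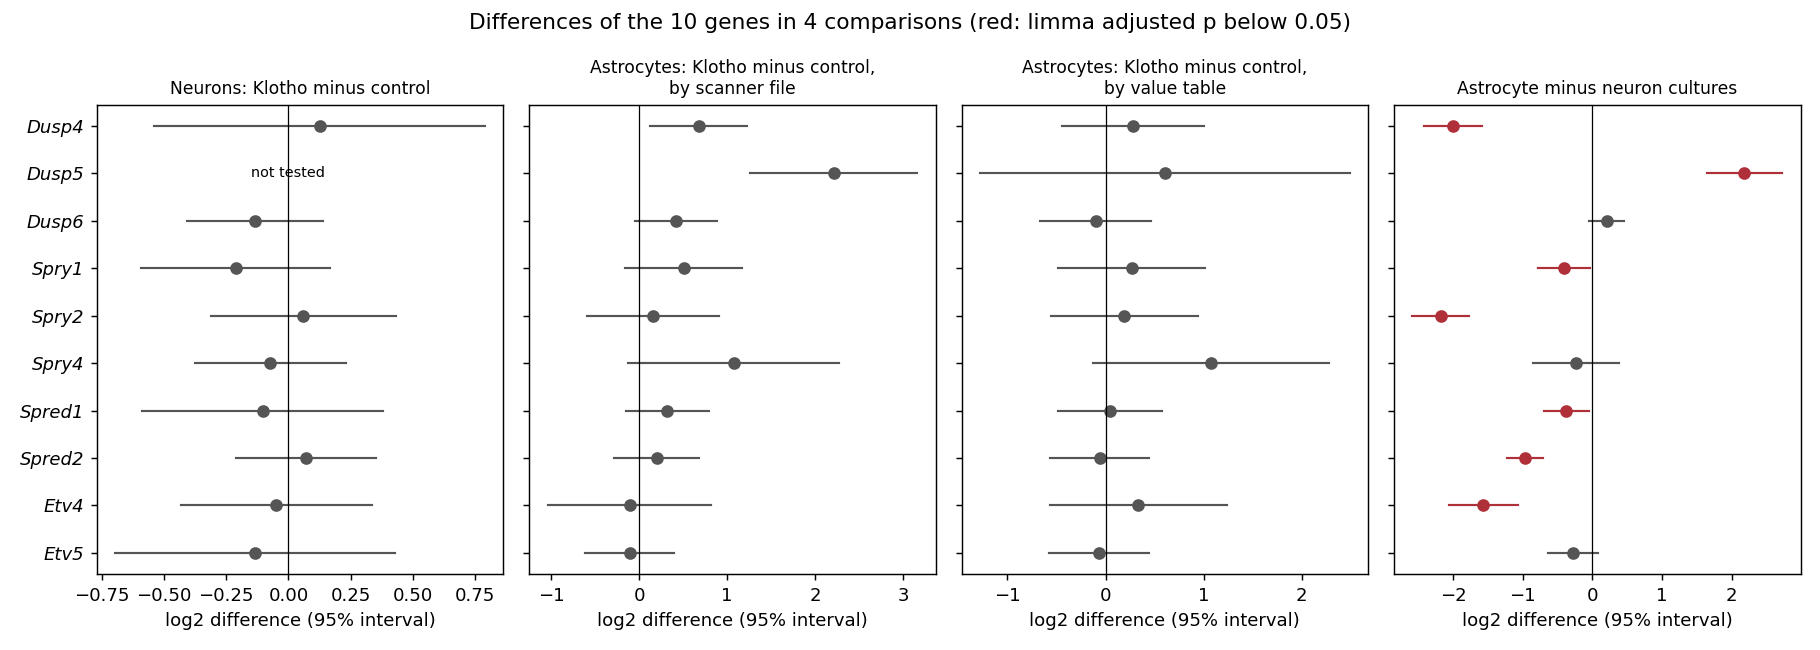
Difference of each gene on the log2 scale with its 95% interval in 4 comparisons, from limma fits over all genes; red marks an adjusted p below 0.05, and Dusp5 was not tested in neurons. Intervals in neurons lie close to 0, the Dusp5 difference of 2.21 in astrocytes by scanner file shrinks to 0.60 by value table, and 7 genes are red between cell types.

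In neurons, the question was whether Klotho moved the feedback genes. None of the 9 genes that could be tested passed in limma (adjusted p from 0.988 to 0.997), and none had an unadjusted p below 0.05, where 4.3% of all genes did. Over all genes, 0.15% of 24703, or 37, passed in this comparison (24 with the replicate number as a block, none of the 9 among them). All 37 were lower on the Klotho arrays, which also had fewer spots above background. Differences of the 9 genes ran from -0.21 (Spry1) to 0.13 (Dusp4). For Dusp6, the bright ERK phosphatase, controls were at 2.68, 2.87, 2.85 and 2.88 and Klotho cultures at 2.41, 2.74, 2.79 and 2.80. The groups overlapped, and the difference of -0.13 had a 95% interval of -0.41 to 0.14. Within each of the 4 replicate numbers the Klotho array was the lower for Dusp6, by 0.06 to 0.27, for Spry1, by 0.08 to 0.41, and for Etv5, by 0.09 to 0.20. That pattern held for 3 of the 9 genes tested and for 17.7% of all genes. Spry4 had an interval of -0.37 to 0.23 and Spred2 one of -0.21 to 0.35. For Etv5 the interval was -0.70 to 0.43 and for Dusp4 -0.54 to 0.79. With 4 arrays a group, changes within these bounds were not excluded. Dusp5 was well above background on neuron control replicate 3 only and was left out of the test. No gene of the pathway lists passed in limma. An unadjusted p below 0.05 was reached by 2 of 10 receptor adaptors, Sos2 (-0.25 ± 0.09) and Frs2 (-0.26 ± 0.11), and by 1 of 5 FGF receptor genes, Fgfr3 (-0.33 ± 0.13). It was reached by 0 of 8 FGF ligands, 0 of 11 cascade genes, 0 of 6 other MAP kinase phosphatases, 0 of 10 early genes and 0 of 6 other feedback genes.

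Etv5, Spred1 and Dusp4 differed between neuron arrays by the replicate number in the labels, which is also the slide column. Etv5 was at 4.17 and 4.08 on the control and Klotho arrays of replicate 1, and at 4.80 to 5.01 on the other 6. Spred1 was at 1.66 and 1.38 on the same 2 arrays and at 2.10 to 2.26 on the rest. Dusp4 was at -1.16 and -1.18 there, lower than on all other neuron arrays. An F test over the 4 numbers beside treatment in limma, chosen after seeing the data, gave adjusted p-values of 0.0106 for Etv5, 0.0232 for Spred1 and 0.0303 for Dusp4. Spry1 was high on those arrays, at 0.80 and 0.56, and did not pass (adjusted p = 0.0683). So 3 of 9 genes tested passed, where 23.9% of all genes did, which is too close to read anything from the count. Astrocyte and oligodendrocyte lineage markers moved with these genes, and microglia markers did not. The 9 astrocyte markers summed to 7.05 and 6.67 on the replicate 1 arrays and to 7.41 to 7.68 on the others, and Gfap was at -1.30 and -1.39 against 0.49 to 1.12. Oligodendrocyte lineage markers summed to 5.92 and 6.05 against 6.45 to 7.11, and neuron markers to 9.06 and 8.998 against 8.69 to 8.79. Microglia markers summed to 5.25 and 5.40 against 5.05 to 5.42. The part of cell content in the result was not tested.

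**Figure D3:**
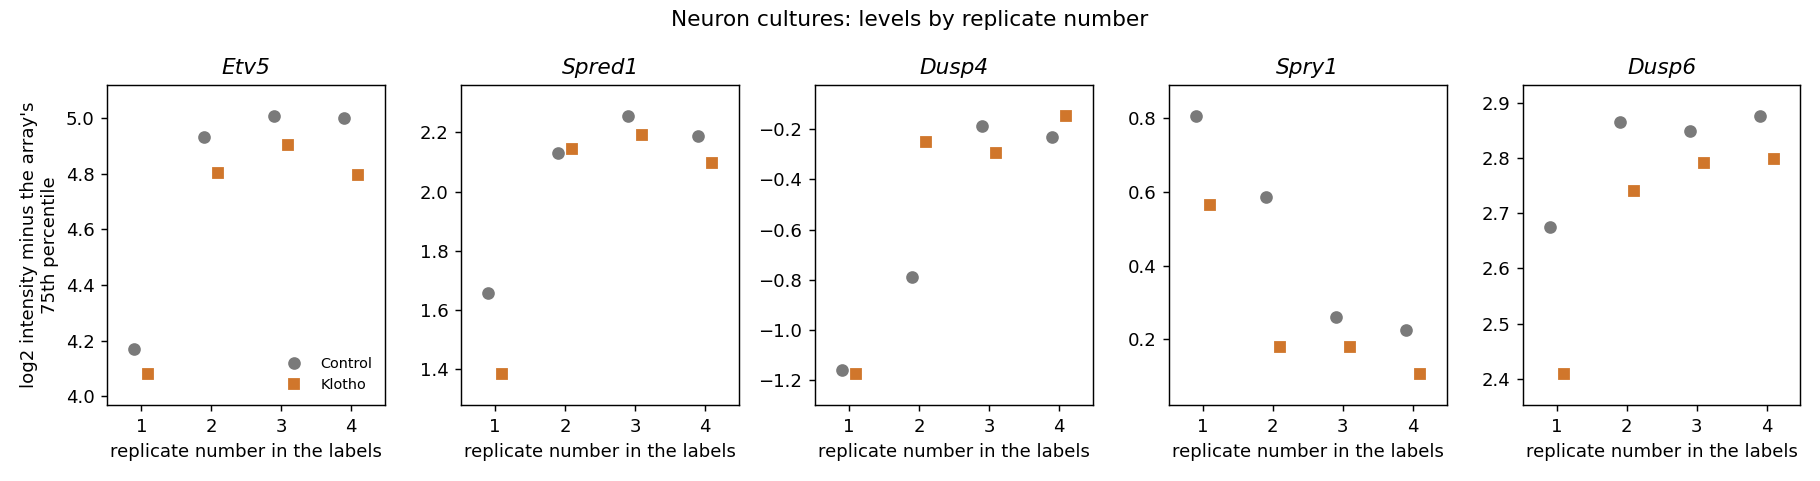
Level of 5 genes (log2 intensity minus the array's 75th percentile) on the 8 neuron arrays by replicate number, with control as circles and Klotho as squares. Both replicate 1 arrays are low for Etv5, Spred1 and Dusp4 and high for Spry1.

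In astrocytes with treatments as in the scanner files, the differences were largest for Dusp5 (2.21), Spry4 (1.07) and Dusp4 (0.68). None passed across all genes, where 0% of 23562 passed in limma. The differences of 8 of 10 genes were positive, with a median of 0.37 against -0.01 over all genes. An unadjusted p below 0.05 was reached by 2 of 10, Dusp5 and Dusp4, and by 3.77% of all genes.

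Dusp5 was at -5.89, -5.88, -6.37 and -4.25 on the control arrays and at -3.36, -3.38, -3.55 and -3.24 on the Klotho arrays. It was well above background on 2 control and 4 Klotho arrays, and the groups did not overlap, as for 1.1% of all genes with higher Klotho values. Dusp5 entered the test through the Klotho group, so the difference of 2.21 ± 0.42 (SE, 4 arrays against 4; limma adjusted p = 1) is set in part against control values at background and its p is no support. Control replicate 4 was the nearest to the Klotho arrays; without it the difference was 2.66 and the adjusted p 0.068. With a normexp background and quantile scaling it was 0.93 (adjusted p = 1). At the same slide position, Klotho exceeded control by 2.52, 2.50, 2.81 and 1.01.

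Dusp4 was at -2.85, -2.85, -2.98 and -2.79 on control and at -2.03, -1.97, -2.82 and -1.95 on Klotho arrays. Klotho replicate 3 lay among the controls and the other 3 lay above all of them, for a difference of 0.68 ± 0.24 (limma unadjusted p = 0.0215, adjusted p = 1). Dusp6 was at 2.70, 2.43, 2.87 and 2.98 on control and at 3.36, 2.98, 3.1 and 3.23 on Klotho arrays. Its lowest Klotho array equalled the highest control to the second decimal, and the difference was 0.42 ± 0.21 (limma adjusted p = 1). All 3 phosphatases were thus higher in each of the 4 pairs of the same slide position, as were Spry1 and Spred1. That pattern held for 5 of the 10 genes and for 8.86% of all genes, and was looked for after the data had been seen. In the row 1, column 3 pair the sign rests on the scaling for Dusp4, Dusp6, Spry1 and Spred1. Before scaling they were dimmer on the Klotho array, as Dusp6 at 6507 against 7525 and Spred1 at 2264 against 3682. That Klotho array was dimmer as a whole, with a log2 75th percentile of 9.31 against 10.18.

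The Sprouty genes spread more widely. Spry4, whose product blocks RAS activation, was at -3.42, -3.41, -4.77 and -3.97 on control arrays and at -3.49, -1.72, -3.90 and -2.17 on Klotho arrays. Only Klotho replicates 2 and 4 lay above the controls, and the difference of 1.07 ± 0.53 did not pass (limma adjusted p = 1; 95% interval -0.13 to 2.28). Spry1 differed by 0.51 ± 0.29 and Spry2 by 0.15 ± 0.33. Spred1 differed by 0.32 ± 0.21 and Spred2 by 0.20 ± 0.21. Etv4 and Etv5 were the 2 genes with negative differences, of -0.11 ± 0.41 and -0.11 ± 0.22, and Etv5 had a 95% interval of -0.62 to 0.40.

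Under the value table none of the 10 passed either, where 0% of 23608 genes did, and none had an unadjusted p below 0.05, where 2.48% of all genes did. Dusp5 dropped to 0.60 ± 0.83 and Dusp4 to 0.28 ± 0.32. Spry4 kept its size, at 1.08 ± 0.53 (limma adjusted p = 1; 95% interval -0.12 to 2.28), and in each of the 4 pairs of the same slide and row the column 4 array was the higher, by 0.01, 0.80, 1.77 and 1.73. Etv4 was higher in all 4 such pairs too, by 0.13 to 0.51, which makes 2 of the 10 genes against 9.27% of all genes. Dusp6 turned to -0.10 ± 0.25. The arrays that carry 1 treatment in both sources are 4, control replicates 1 and 3 and Klotho replicates 2 and 4. Over these alone Dusp5 differed by 2.82 (limma adjusted p = 0.174), Spry4 by 2.15 (0.594) and Dusp4 by 0.96 (0.994), while 22 of 24880 genes passed. Neither of these control arrays was well above background for Dusp5. Its value is therefore set against background alone and gives no support. The controls kept lay on slide 2 in column 3 and the Klotho arrays kept on slide 3 in column 4. Slide, column and treatment thus cannot be told apart over these arrays.

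**Figure D4:**
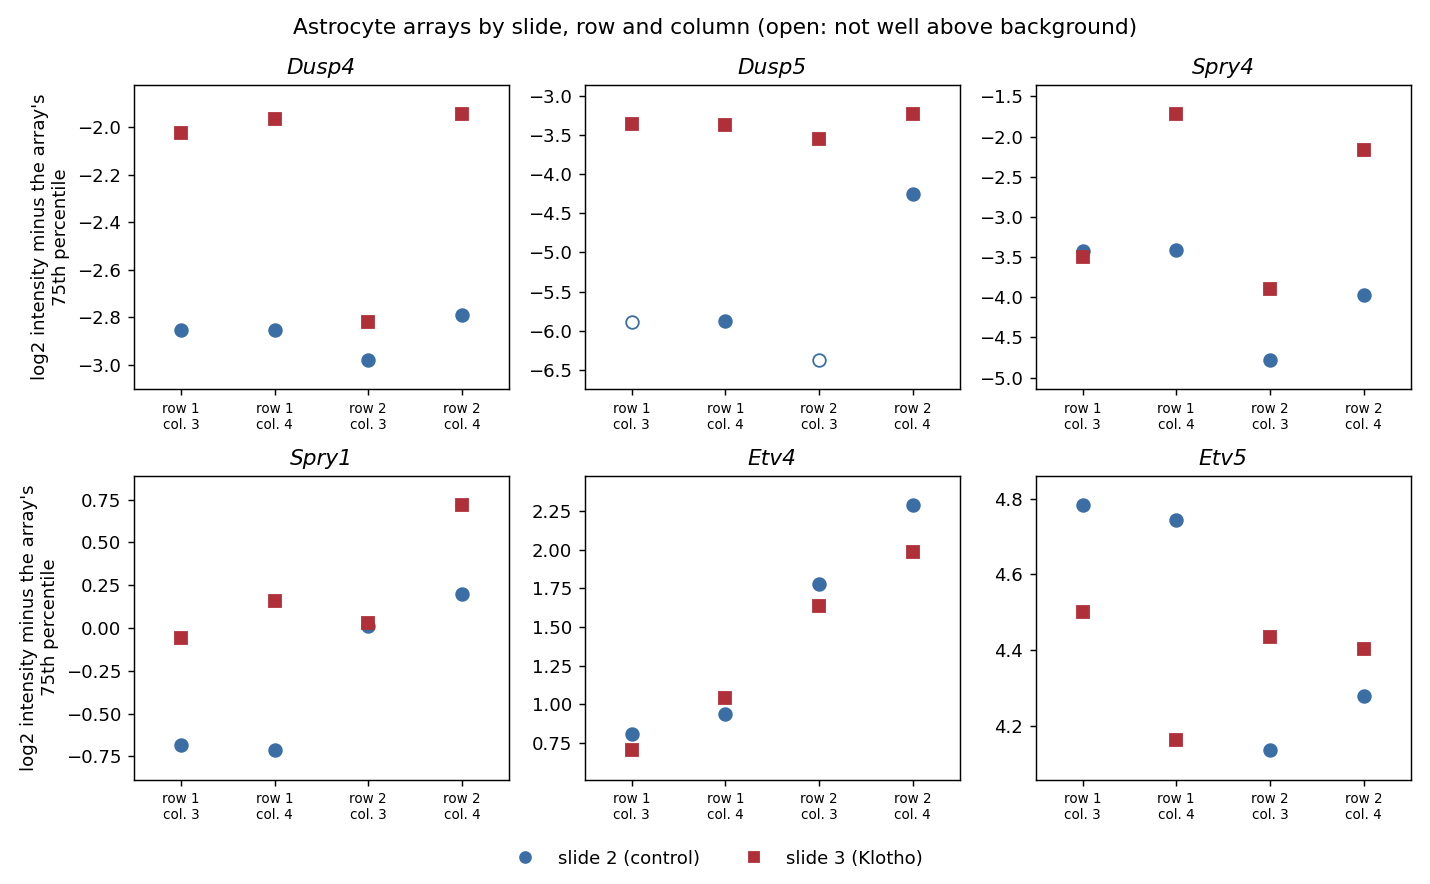
Level of 6 genes (log2 intensity minus the array's 75th percentile) on the 8 astrocyte arrays by slide row and column; circles are slide 2 (control) and squares slide 3 (Klotho) per the scanner files, column 3 is control and column 4 Klotho per the value table, and open symbols are not well above background. Dusp5 separates by slide, Spry4 is highest on the 2 column 4 arrays of slide 3, and Etv4 separates by row.

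The astrocyte arrays also differed by slide row, a position the labels tie to no treatment. By scanner file, row 1 held replicates 1 and 2 and row 2 held replicates 3 and 4 of both groups. Slide row and a difference between these replicates therefore cannot be told apart. With the slide as a block, 47.2% of 23956 genes passed between rows in limma, and 21.7% of the genes tested passed as higher in row 2. Of the 9 feedback genes tested 2 passed, both higher in row 2. Etv4 was at 0.80, 0.94, 0.70 and 1.04 on the 4 row 1 arrays and at 1.78, 2.29, 1.64 and 1.99 on the 4 row 2 arrays. The rows did not overlap, as for 18.1% of all genes with higher row 2 values, and the difference was 1.05 ± 0.18 (limma adjusted p = 0.00421). The second Etv4 probe gave 1.37 ± 0.23 (adjusted p = 0.00415). Spry1 differed by 0.57 ± 0.20 (limma adjusted p = 0.0482), a call lost in 12 of 16 alternative settings. With each array scaled to its median in place of the 75th percentile, the median of all genes moved from -0.05 to -0.49, the share of called genes that were higher moved from 45.9% to 21.6%, Etv4 kept its call at 0.61 and Spry1 was at 0.13. Spred1 (-0.32), Etv5 (-0.23), Dusp4 (-0.21), Spry2 (-0.20), Dusp6 (0.18), Spred2 (0.09) and Spry4 (-0.69) did not pass.

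Summed levels of cell type markers moved with the row as well. Summed levels in rows 1 and 2 were 6.67 to 7.07 and 7.30 to 7.83 for 9 microglia markers, 4.91 to 5.63 and 5.71 to 6.67 for 10 neuron markers, and 4.54 to 6.21 and 6.27 to 6.92 for 9 oligodendrocyte lineage markers. These sums weigh the brightest genes most. Of 9 microglia markers 7 differences were positive and 2 negative, and 1 passed as higher in row 2. Of 9 oligodendrocyte lineage markers 6 were positive and 3 negative, and 2 passed as higher. Over all genes 21.7% passed as higher. The neuron markers did not go one way: of 8 tested, 2 passed as higher and 3 as lower in row 2. Of 5 meningeal fibroblast markers 3 passed as lower and none as higher, with a median of -0.85. Summed levels of 9 astrocyte markers were 8.81 to 9.04 in row 1 and 8.28 to 8.69 in row 2. Of 11 genes of the RAS-ERK cascade 7 were lower in row 2, where 25.5% of all genes were, with Nras at -1.06 ± 0.19 and Hras at -1.03 ± 0.19, and 1, Braf, was higher at 0.60 ± 0.20. The part of cell content in the Etv4 difference was not tested. In a fit of slide, row and column together over 24494 genes, Etv4 again differed by row (adjusted p = 0.00633), and none of the 10 passed for slide or column, as none of all genes did.

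ERK-responsive early genes, and NF-kappaB targets, which answer inflammatory signals, were set beside the feedback genes on the same arrays. By scanner file, 10 of 11 early genes were positive with a median of 1.23, and by value table all 11 with a median of 1.45; none passed in limma, and 2 had an unadjusted p below 0.05 under each source. Egr1, an early gene of ERK and serum response factor, was at 0.86, 0.75, 0.63 and 2.27 on control and at 2.51, 4.72, 1.16 and 3.39 on Klotho arrays. Egr2 was at -3.57, -3.36, -3.28 and -1.02 and at -0.46, 2.60, -2.46 and 1.68. Control replicate 4, the control with the highest Dusp5, was also the control with the highest Egr1 and Egr2. The list of early genes as a whole was not highest there. Its summed level was 5.04 on control replicate 4, against 5.89 on control replicates 1 and 2 and 4.40 on control replicate 3. Klotho replicate 3, the one with the lowest Dusp4 and Spry4, had the lowest Egr1 and Egr2 of its group.

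All 14 NF-kappaB targets were positive by scanner file, with a median of 4.33; none passed in limma, and 12 had an unadjusted p below 0.05. By value table all 14 were positive too, with a median of 2.06 and 0 unadjusted. Il6 was at -4.27, -4.54, -6.34 and -4.76 on control and at 2.75, 5.40, -2.17 and 5.60 on Klotho arrays. Cxcl1 was at -0.90, -0.96, -3.74 and -2.87 and at 4.82, 7.13, 0.10 and 7.03. Klotho replicate 3 was the lowest of its group for both genes, as it was for Dusp4. It was the lowest for Dusp5 too, at -3.55 with the other 3 between -3.38 and -3.24, a narrow spread (SD 0.13, n = 4). Not all feedback genes had their lowest Klotho value there. Spry1 was lowest on Klotho replicate 1, at -0.06, and Dusp6 on Klotho replicate 2, at 2.98. Of 6 meningeal fibroblast markers, the summed level was 3.25 to 3.49 on control and 3.58 to 4.82 on Klotho arrays; 4 of 5 tested were positive and none passed, with Col1a2 at 1.2 ± 0.32. Of 9 oligodendrocyte lineage markers 7 were negative, 2 positive and none passed, with Mag at -1.61 ± 0.36, and their summed levels overlapped (4.54 to 6.92 on control and 5.13 to 6.31 on Klotho arrays). The part of an inflammatory signal or of cell content in the Dusp5, Dusp4 and Spry4 differences was not tested, and by scanner file slide and treatment cannot be told apart. Among the other MAP kinase phosphatases, Dusp2 was at 2.18 ± 0.90 by scanner file and Dusp1 at 0.71 ± 0.31 by value table, and neither passed.

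**Figure D5:**
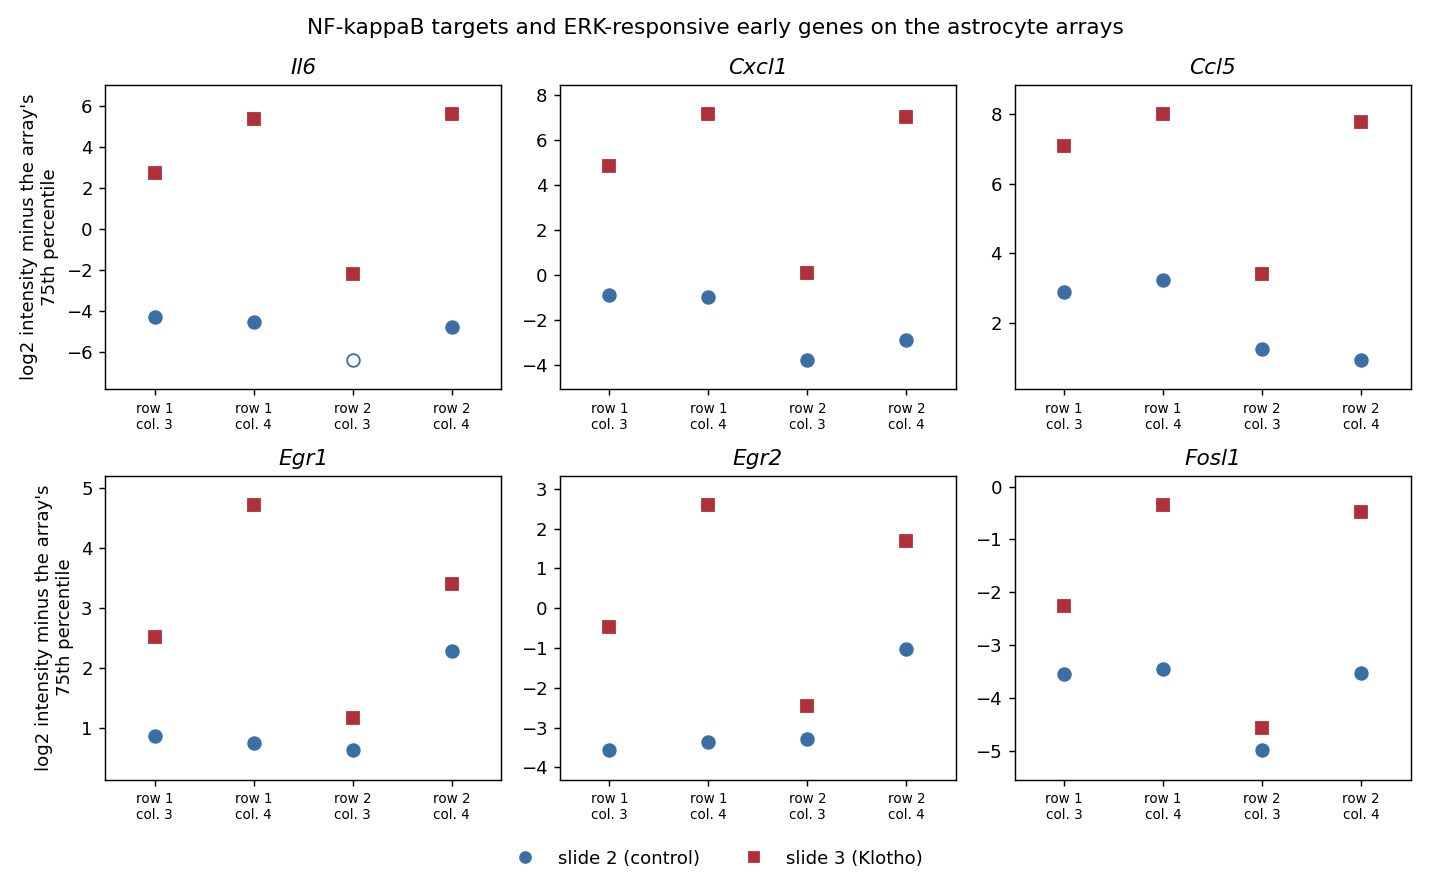
Level of 3 NF-kappaB targets (Il6, Cxcl1, Ccl5) and 3 ERK-responsive early genes (Egr1, Egr2, Fosl1) as log2 intensity minus the array's 75th percentile on the 8 astrocyte arrays by slide row and column; circles are slide 2 (control) and squares slide 3 (Klotho) per the scanner files, and open symbols are not well above background. On slide 3 the row 2, column 3 array is the lowest of its slide for Il6, Cxcl1, Egr1 and Egr2.

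The difference between the astrocyte and neuron effects of Klotho was tested by an interaction over all 16 arrays, with treatments as in the scanner files. None of the 10 passed in limma, and 0.0881% of 26109 genes did. An unadjusted p below 0.05 was reached by Dusp5 and Dusp6, and by 5.26% of all genes. Dusp5 had 2.48 ± 0.51 (adjusted p = 0.129), but it entered through the astrocyte Klotho group alone and was above background on 1 of 8 neuron arrays, so neither this value nor its p gives support. Without astrocyte control replicate 4 it was 2.93 with an adjusted p of 0.00119, with a normexp background 0.95, and 0.88 with the treatments that the value table gives. Dusp6 had 0.56 ± 0.23 (adjusted p = 0.929), Spry1 0.72 ± 0.35 and Spry4 1.15 ± 0.58. An effect in astrocytes that differs from that in neurons was therefore not shown for any of these genes with all arrays in.

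Genes whose pattern came nearest to the mean pattern of the feedback genes were ranked by the root mean square of the difference between centred log2 levels over 8 arrays of a cell type. In astrocytes, over 14690 genes and with 8 feedback genes in the mean, they were Snx9 (0.106), Tle1 (0.108), Pip5k1a (0.109), Cadps2 (0.111) and Ctu2 (0.118). The mean pattern itself ran from -0.27 on control replicate 2 to 0.46 on Klotho replicate 4. In neurons, over 14580 genes and with 9 feedback genes in the mean, they were Pdrg1 (0.0243), Ube2e2 (0.0245), Itm2b (0.0257), Lamtor2 (0.0273) and Gm6578 (0.0283). There the mean pattern was at -0.16 and -0.31 on the replicate 1 arrays and at 0.05 to 0.12 on the others.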

How the data were processed

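Per the file headers, the software behind the 16 scanner files was Feature Extraction 12.0.3.1 of Agilent. Their processed signal is a linear intensity, background-subtracted within the array by the authors' scanner software, and the deposited value table holds a score: each column equals the z-score of log2 intensity of 1 array to within 0.005.

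Spots of a probe were averaged without outliers and control spots, log2 was taken and the array's 75th percentile subtracted. Symbols came from RefSeq accessions in a GRCm38.p6 table, and the brightest probe stood for a gene. A gene entered a comparison if every array of 1 or more of the groups compared had it well above background. Differences were fitted over all genes with limma 3.58.1 in R 4.3.3, adjusted by Benjamini and Hochberg at 0.05, and the fit was tested on simulated data. Figures were drawn with matplotlib in Python. The number of arrays limits the precision. The members and lists were chosen with earlier results of these data known. The text names all 10 members, the 5 nearest patterns per cell type and, for each list and comparison, no more than the 3 genes of lowest p; Braf, Gfap, Kl and Klb fall outside this rule and were chosen after their values were seen.

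Deviations of same-numbered arrays of both treatments correlated at 0.815, 0.218, 0.576 and 0.475 in neurons. In astrocytes by scanner file they correlated at 0.752, 0.191, 0.559 and 0.644. The best correlation with an array of another number was -0.564, 0.377, 0.565 and 0.415 in neurons and 0.182, 0.696, 0.446 and 0.425 in astrocytes. Replicate 2 was thus nearer to another array in both cell types, so the numbers pair the arrays only in part. The numbers are also slide positions. By value table the same-numbered correlations were 0.0544, -0.775, 0.677 and -0.343, each below the best with another number. Alternatives were other scalings, background corrections, filters, probe rules and blocks, and leaving out each array. The planned normexp correction used median spot signals in place of mean signals.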

Additional observations from a re-analysis of the deposited data

Results flagged for a closer look

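In 10 of 40 sets of 4 arrays, 1 array stood apart from the other 3 by Dixon's criterion, which chance meets in about 1 set of 20. Of these, 7 were a neuron replicate 1 array. Etv5 was at 4.17 (control) and 4.08 (Klotho) on these, with the next array at 4.93 and 4.80. Dusp6 was at 2.67 and 2.41, with the next at 2.85 and 2.74. Dusp4 was at -1.18, Spred1 at 1.38 and Spry1 at 0.56 on the Klotho array of replicate 1. Spry2 was low on neuron control replicate 4, at -3.44, and on neuron Klotho replicate 2, at -3.25. In astrocytes, Dusp4 was at -2.82 on Klotho replicate 3, with the other 3 at -2.03 to -1.95.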

How the results depend on the processing

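The number of the 10 genes past the threshold stayed at 0 for Klotho against control in neurons and in astrocytes under both sources, in every setting tried here, and was 5 to 7 between cell types (main value 7). With the replicate number as a block it was 0 in neurons, 0 in astrocytes under both sources, 6 between cell types and 0 for the interaction. For the row difference (2 genes) it was 1 with no filter on dim genes, 1 with the mean of all probes, 1 with no block, 3 with array median scaling (Etv4 higher, Dusp4 and Spred1 lower) and 3 with quantile scaling (Dusp6 and Etv4 higher, Spry2 lower), and 1 to 2 when 1 array was left out. For the interaction it was 0 to 1 when 1 array was left out. None of the called genes changed direction. In neurons the count over all genes, 37, ran from 4 with genes above background on all arrays to 4027 with no filter on dim genes, and was 24 with the replicate block. For astrocytes by scanner file it was 0, and it was 22 on the arrays with the same treatment in both sources, 16 without Klotho replicate 3 and 6 without both replicate 3 arrays. For the interaction it was 23, and 168 without Klotho replicate 3. In astrocytes by scanner file, the Dusp5 difference ran from 0.93 with a normexp background to 2.82 on the arrays with 1 treatment in both sources. Among the latter no control was well above background for Dusp5. The cause of this range was not tested.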

Other observations

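The probe named Fgf23 by its accession was bright on all 16 arrays, at 4.83 to 5.12 in neuron and 3.56 to 6.61 in astrocyte cultures. It was higher in astrocyte row 2 than row 1 by 1.70 ± 0.42 (limma adjusted p = 0.0124), where 21.7% of all genes passed as higher. In neurons, 3 of 5 adult liver genes tested passed as lower on the Klotho arrays, where 0.15% of all genes did. Summed levels of the liver genes were 2.28 to 2.78 on control and -1.41 to 1.09 on Klotho arrays. Of 6 liver genes, 5 to 6 were well above background on each control array, and 2 to 3 on each Klotho array. The liver gene differences are thus set in part against values at background. The Klotho arrays also lay in row 2 and the controls in row 1. None of the 9 feedback genes passed in neurons.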
